A study of Drosophila melanogaster with 4 samples.

Results

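The broad domains described here are the H3K4me1 peaks of 5 kb or more on the large chromosome arms 2L, 2R, 3L, 3R and X of Drosophila melanogaster, chosen by width alone from a single deposited peak list and without any filter on score. The rule found 752 domains among 14009 peaks on these arms and 14326 peaks in the list. Monomethylated lysine 4 of histone H3 (H3K4me1) was mapped by chromatin immunoprecipitation followed by sequencing (ChIP-seq) in third-instar larvae at the wandering stage, with 2 ChIP libraries and 2 input DNA libraries. All 4 libraries came from the strain labelled Y cn bw sp, of unknown sex and without any treatment named in the labels. The labelled genotype carries y[1] and oc[R3.2]. It further carries Gr22b[1] with Gr22d[1], cn[1] with CG33964[R4.2], and bw[1] with sp[1]. Its remaining alleles are LysC[1] and lab[R4.2], then MstProx[1] and GstD5[1], then Rh6[1]. The libraries were made from larvae and not from sorted cells, so 1 wide domain cannot be told apart from several narrower regions that carry the mark in different tissues.

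In flies H3K4me1 is placed mainly by the methyltransferase Trithorax-related, the counterpart of mammalian MLL3 and MLL4. The mark is commonly found over enhancers, DNA elements that raise the transcription of genes at a distance, and on the shoulders of active promoters, whose centres carry the trimethylated form instead. Long unbroken stretches of H3K4me1 are known from the regulatory neighbourhoods of developmental genes, where many enhancers lie close together. Gene annotation and genome sequence in the coordinates of the list (FlyBase release 5) were not used here, so domains are named by position and no genes or bases are given.

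The list holds 1 start, 1 end and 1 score per peak and no value per library. No spread between replicates can be given for any value below, the sequencing depth is unknown, and no test was made. Width chose the domains, and score, gap and position come from the same peak calling, so all are given as descriptions beside narrower peaks. Width classes include their lower and leave out their upper limit. The 95% intervals are binomial, treat peaks as independent, and cover counting error only. Positions are counted from 1.

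The domains were a small part of the peaks and a large part of the marked sequence. They made up 5.37% of the peaks on the 5 arms, covered 6.18 Mb and held 28.6% of the sequence under peaks there. Their median width was 7.05 kb and their quartiles were 5.74 and 9.35 kb, within a range of 5.00 to 37.1 kb. Most were only somewhat wider than the limit: 236 were under 6 kb and 231 were between 6 and 8 kb. A further 125 lay between 8 and 10 kb, 112 between 10 and 15 kb, and 48 were 15 kb or wider. These 48 domains, 6.38% of all domains, held 14.5% of the domain sequence. Only 12 reached 20 kb.

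The 3 domains just inside it were 5000 bp wide (3L, 779860 to 784859, score 125), 5001 bp (3R, 24426354 to 24431354, score 221) and 5013 bp (2R, 2003108 to 2008120, score 226). The 3 peaks just outside it were 4998 bp (X, 13202020 to 13207017, score 124) and, in 2 cases, 4994 bp (2L, 2197121 to 2202114, score 237, and 3L, 11517515 to 11522508, score 156). Within 100 bp of the limit there were 28 peaks below it and 24 at or above it, so the limit cut a continuous range of widths.

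The arms differed more in how many domains they held than in how wide these were. X had 195 domains, or 8.70 per Mb between its first and last peak. Arm 2R had 157 (7.43 per Mb), 3R had 169 (6.06 per Mb), 3L had 125 (5.45 per Mb) and 2L had 106 (4.62 per Mb). The number per Mb on X was 1.48 times that of the 4 autosomal arms together, and X lay above each of them. Median widths ran only from 6.83 kb on 3R to 7.33 kb on X, and the share of domains of 10 kb or more ran from 18.9% on 2L to 23.2% on 3L. Domains held 34.8% of the sequence under peaks on X, 30.1% on 2R, 27.3% on 3R, 25.1% on 3L and 24.5% on 2L.

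**Figure D1:**
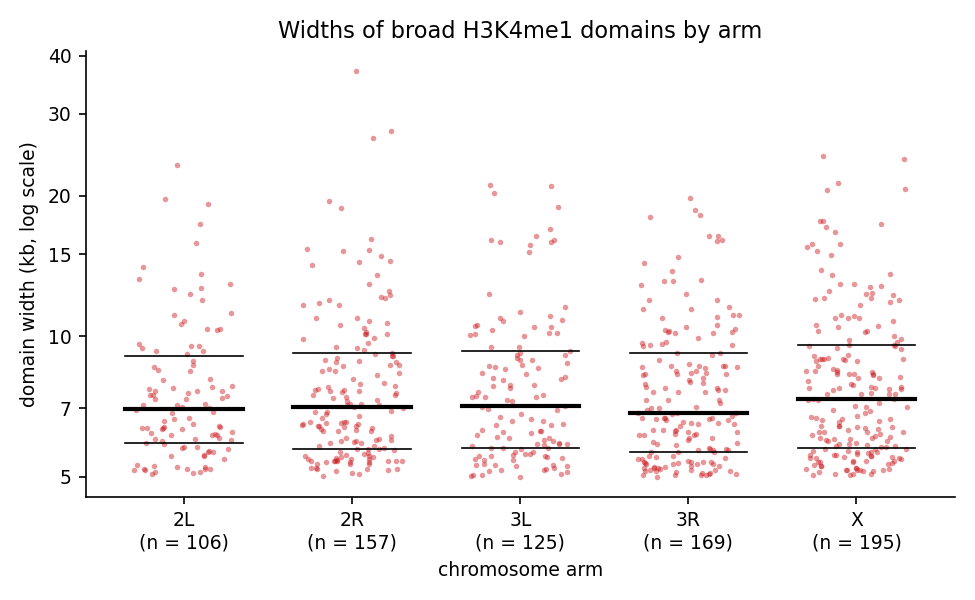
Width of each broad domain (kb, log scale) on the 5 large arms; each point is 1 domain, the thick line is the median of the arm and the thin lines are its quartiles. The medians lie between 6.83 and 7.33 kb, and the widest domain, on 2R, stands at 37.1 kb.

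The widest domain of each arm had different surroundings. On 2R the domain at 7061306 to 7098390 (37.1 kb, score 259) stood 24.1 kb from the peak on its left and 158 bp from a peak of 364 bp on its right. The nearest other domain was 380 kb away. On X the domain at 2178975 to 2203378 (24.4 kb, score 527) had a peak of 2397 bp 200 bp to its left and one of 4802 bp 6.49 kb to its right. The widest domain of 2L, at 476576 to 499866 (23.3 kb, score 376), was followed after 158 bp by another domain of 8.68 kb. On 3L it was the domain at 1 to 21096 (21.1 kb, score 361), whose start is the end of the arm. On 3R the domain at 25597802 to 25617595 (19.8 kb, score 262) had a domain of 10.4 kb just 73 bp to its left.

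Among the other domains of the 10 widest, those at 2R, 7478843 to 7506466 (27.6 kb), and 2R, 8904169 to 8930779 (26.6 kb), each had a further domain as a direct neighbour, of 15.4 kb and 19.5 kb. The pair at X, 12611588 to 12635551 (24.0 kb) and 12636299 to 12657601 (21.3 kb), was separated by 747 bp, and to the right of the pair no peak followed for 126 kb. The remaining domains, at 3L, 10657950 to 10678945 (21.0 kb), and X, 12553489 to 12574209 (20.7 kb), had narrower peaks 287 and 445 bp away on their left. Of the 10 widest, 6 had a neighbouring peak within 200 bp and 5 had another domain within 10 kb. Over all domains 36.8% had another within 10 kb. With all domains divided by score into 4 classes, 35.1% to 50.5% of each class had a neighbour within 200 bp. So few domains do not set the widest apart.

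Scores of the domains were high but spread widely. The score is the authors' own value per peak, on a scale that is not stated, so only its order is used. The domains had a median score of 193 and quartiles of 139 and 251, and their scores ran from 48.0 to 527. Of the 752, 729 (96.9%) were in the upper 25% of scores on the arms, at 79.3 or more, and none was below the median of all peaks (33.1). Peaks of 2 to 5 kb had a median score of 112, and 75.2% of them were in the upper 25%. The order of scores followed the order of widths less closely across the domains than across narrower peaks. Spearman's rho was 0.33 over the 752 domains, between 0.26 and 0.44 within each arm, and 0.88 over the 13257 narrower peaks. These values are descriptions across peaks that share the same libraries, and the domains cover a narrower range of widths by construction. The median score went from 158 in domains under 6 kb to 257 in those of 15 kb or more.

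High scores were found at domains of very different width. Among the 10 domains with the highest score, widths ran from 5.22 kb (3R, 4878378 to 4883592, score 468) to 24.4 kb. The domain with the second highest score, at X, 3662500 to 3674858 (score 488), was 12.4 kb wide and 78th by width. Those at X, 9470093 to 9479801 (9.71 kb, score 467), 3R, 12031230 to 12039578 (8.35 kb, score 426), and 2R, 3413953 to 3420706 (6.75 kb, score 425), were 168th, 259th and 401st by width. The list of 10 also held 2R, 14684770 to 14695351 (10.6 kb, score 420), and X, 12466344 to 12477131 (10.8 kb, score 410). Conversely, 466 narrower peaks scored at or above the domain median of 193, and 104 of these were under 2 kb. Of the 100 peaks with the highest score on the arms, 73 were domains.

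**Figure D2:**
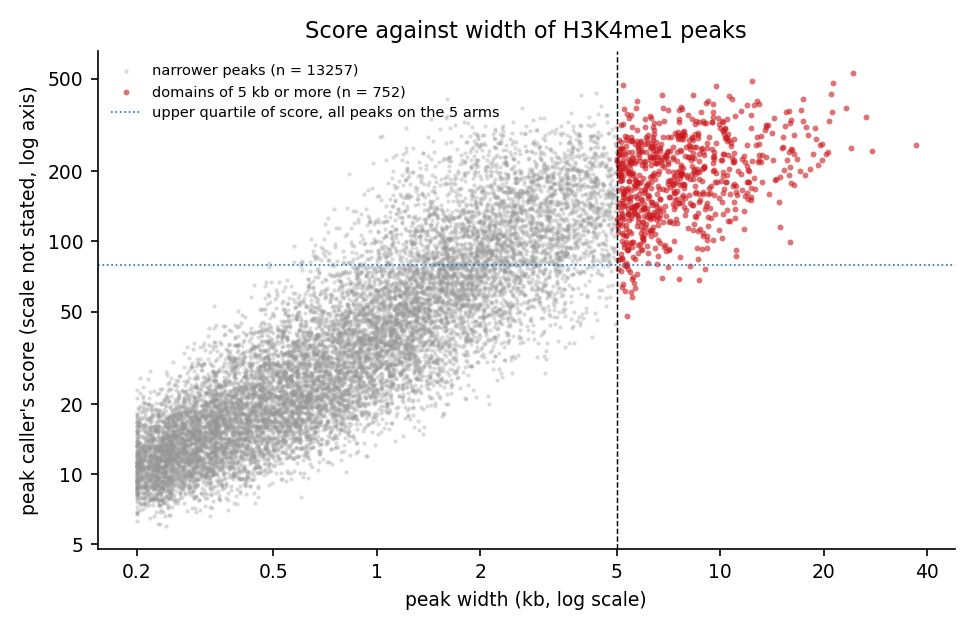
Peak caller's score (log axis, scale not stated) against peak width (kb, log scale) for all peaks on the 5 arms; red points are the 752 domains, grey points the 13257 narrower peaks, the dashed line marks 5 kb and the dotted line the upper quartile of score (79.3). Nearly all domains lie above the dotted line, and 23 lie below it.

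The 10 domains with the lowest scores were, with 1 exception, under 6 kb wide. The lowest was at 3R, 4567990 to 4573340 (5.35 kb, score 48.0), 128 bp from the peak on its left. It was followed by 3R, 14816498 to 14822020 (score 57.6), which lay 78 bp from a domain of 6.64 kb, and 3R, 20914193 to 20919699 (score 60.7), which had peaks 143 and 134 bp away on its left and right. The next were at X, 1924803 to 1930076, 2R, 2389634 to 2395291, X, 19671274 to 19676447, 2R, 6661710 to 6666913, and 3L, 4355488 to 4361077, with scores from 61.5 to 66.4. The last of the 10 were at 2L, 500025 to 508700 (8.68 kb, score 68.2), 158 bp after the 23.3 kb domain of that arm, and 2R, 12612926 to 12618464 (score 69.2). Of these 10 domains 8 had a neighbour within 200 bp. With the domains divided by score into 4 classes of 188, the same was seen in 95 domains of the lowest class (50.5%) and in 35.1% to 36.2% of the other 3 classes. This division was made after the low-scoring domains had been seen.

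Most domains had another peak close to at least 1 edge. A side is an edge of a domain with a peak beyond it on the same arm. The 752 domains had 1501 sides, since 3 domains were the outermost peak of an arm. The median gap on a side was 564 bp (95% interval 515 to 625), with quartiles of 224 and 1364 bp. A neighbouring peak lay within 1 kb on 1024 sides (68.2%, 95% interval 65.8 to 70.6) and within 200 bp on 332 sides (22.1%). Among narrower peaks of all widths the median gap was 661 bp (95% interval 648 to 676). Of their sides, 60.9% had a neighbour within 1 kb and 19.4% within 200 bp. Peaks of 2 to 5 kb were close to the domains, with a median gap of 604 bp (95% interval 582 to 628). Of their sides, 67.2% had a neighbour within 1 kb and 18.3% within 200 bp. The smallest gap in the list was 51 bp in every width class.

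Both sides were considered together for the 749 domains that had a peak on each. In 356 (47.5%) both neighbours were within 1 kb, in 310 (41.4%) 1 neighbour was, and in 83 (11.1%) neither was. The shares were nearly the same for peaks of 2 to 5 kb (45.9%, 42.6% and 11.5%), and 32.0%, 49.9% and 18.1% for peaks of 200 to 500 bp. The median was 262 bp for the nearer gap and 1079 bp for the farther gap of a domain. In 221 domains (29.5%) the farther gap was at least 10 times the nearer one. Neither these medians nor this share was computed for narrower peaks, so they mark no trait of domains. In 10 domains (1.34%) no peak lay within 10 kb on either side. The share was 0.713% (17 peaks) at 2 to 5 kb and 1.85% over all narrower peaks.

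The domains with the widest empty flanks on both sides were at 2L, 13509394 to 13516856, 3R, 22081991 to 22087270, 2L, 5144119 to 5153411, 2L, 6610987 to 6616183, and 2R, 10459662 to 10466153. The first, 7.46 kb wide with a score of 198, had 64.0 kb without peaks on its left and 28.7 kb on its right. The second, 5.28 kb wide with a score of 237, had 26.1 kb and 191 kb. The other 3 had gaps between 21.5 and 44.9 kb on each side. All 5 had scores between 169 and 267, all above the lower quartile of the domains (139).

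The peaks next to domains had a median width of 1254 bp and a median score of 55.1. Because domains were chosen as the widest 5.37% of peaks, most neighbours are narrower by that choice. A neighbour wider than its domain was found on 70 sides (4.66%). On 192 sides (12.8%) the neighbour had the higher score. Neighbours under 500 bp stood on 24.5% of sides and neighbours of 2 to 5 kb on 25.5%. Beside peaks of 2 to 5 kb the median neighbour was 1241 bp wide with a score of 54.2, and beside peaks of 200 to 500 bp it was 649 bp wide with a score of 25.0.

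Neighbours that were themselves domains stood on 140 sides (9.33%, 95% interval 7.90 to 10.9). These sides belong to 70 adjacent pairs, each counted from both of its domains, so this interval is too narrow. The share was 8.03% (95% interval 7.28 to 8.84) at peaks of 2 to 5 kb and 3.97% (95% interval 3.58 to 4.39) at peaks of 200 to 500 bp. Among sides with a gap of 200 bp or less the neighbour was a domain on 46 of 332 (13.9%), and among sides with a gap over 10 kb on 8 of 126 (6.35%). Peaks across a gap over 10 kb had a median width of 687 bp and a median score of 29.7.

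Sequence under other peaks was measured at increasing distance from the edges. It rose from 24.6% in the first 500 bp beside a domain, where the gap itself takes room, to 56.9% at 1 to 2 kb. It then fell to 48.5% at 2 to 5 kb, 38.5% at 5 to 10 kb, 28.3% at 20 to 50 kb and 22.8% at 50 to 100 kb. The mean over the 5 arms was 18.4%. Beside peaks of 200 to 500 bp the highest value was 38.3%, also at 1 to 2 kb. Peaks of 2 to 5 kb followed the domains closely, with 55.5% at 1 to 2 kb and 38.6% at 5 to 10 kb. The part covered by other domains was 13.7% at 5 to 10 kb from a domain, 11.9% at that distance from a peak of 2 to 5 kb and 8.16% from one of 200 to 500 bp, against 5.27% over the arms.

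**Figure D3:**
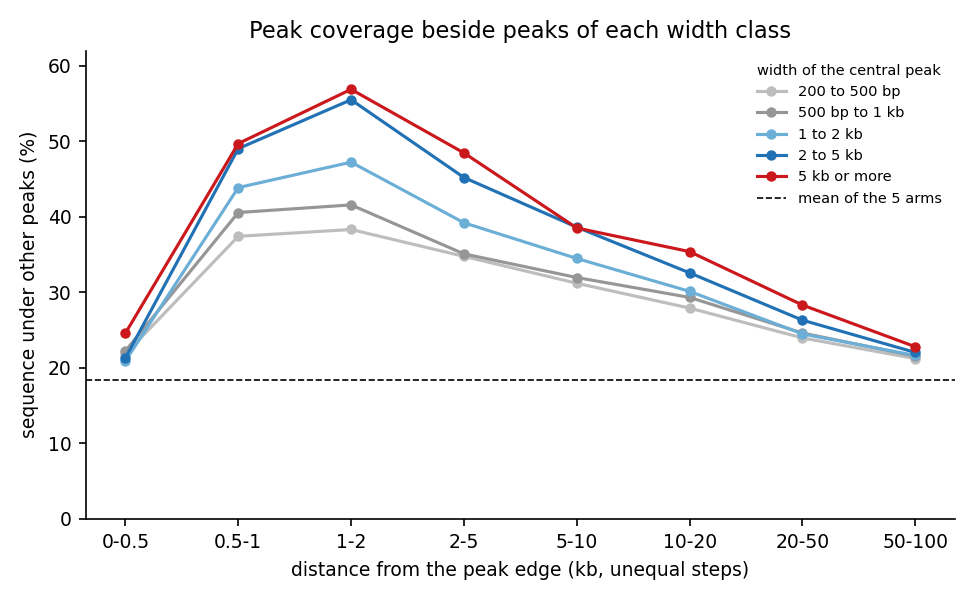
Share of sequence under other peaks (%) by distance from the edge of a peak (kb, in unequal steps), for 5 width classes of the central peak; the dashed line is the mean of the arms (18.4%). The domains (red) and the peaks of 2 to 5 kb (dark blue) run close together, with 56.9% and 55.5% at 1 to 2 kb, above the narrower classes.

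When peaks separated by at most 1 kb were joined, 652 of the resulting regions contained a domain and 4774 did not. A region with a domain held a median of 4 peaks and was a median of 13.5 kb long, and its domains made up a median of 65.9% of that length. In 84 regions (12.9%) a single domain stood with nothing joined to it. Regions with more peaks have more chances to hold a domain, so the number of peaks is not compared with that of the other regions. In 82 of the regions there were at least 2 domains.

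Over the 5 arms together, domains lay closer to other domains than narrower peaks did. The arms were not compared singly. Domains made up 7.67% of peaks on X, the arm with most domains per Mb, and 4.86% on the autosomal arms. On the autosomal arms alone 32.5% of domains had another within 10 kb, and no such value was computed for narrower peaks. The median distance from a domain to the nearest other domain was 18.3 kb (95% interval 15.4 to 21.5), with quartiles of 4.82 and 58.5 kb. From peaks of 2 to 5 kb to the nearest domain it was 24.3 kb (95% interval 22.0 to 26.9), and from peaks of 200 to 500 bp 42.2 kb (95% interval 39.8 to 44.5). Another domain was found within 10 kb of 277 domains (36.8%, 95% interval 33.4 to 40.4), within 10 kb of 32.3% of peaks of 2 to 5 kb and within 10 kb of 22.1% of peaks of 200 to 500 bp. Within 50 kb the shares were 70.9%, 65.3% and 54.2%. At the other extreme, 119 domains (15.8%) had no other domain within 100 kb. Wider domains had nearer domains, with a median distance of 21.3 kb for those under 6 kb and 10.5 kb for those of 15 kb or more. Score showed no such order, since the share with a domain within 10 kb was between 36.2% and 37.2% in all 4 classes of score.

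**Figure D4:**
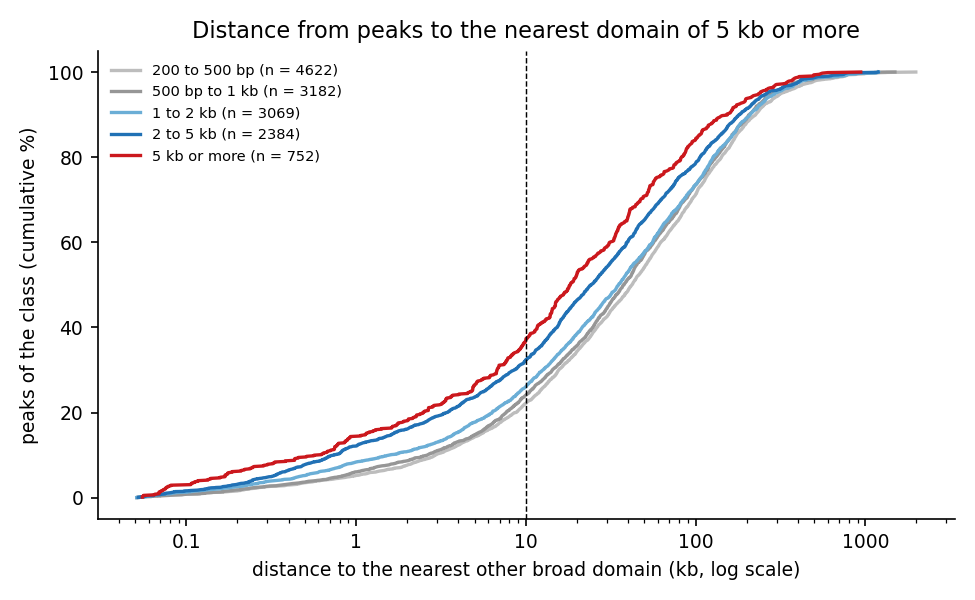
Cumulative share of peaks (%) by distance to the nearest other domain of 5 kb or more (kb, log scale), for 5 width classes; the dashed line marks 10 kb. At 10 kb the domains (red) reach 36.8%, peaks of 2 to 5 kb 32.3% and peaks of 200 to 500 bp 22.1%.

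Along the arms, 747 pairs of consecutive domains were separated by a median of 56.4 kb (95% interval 47.4 to 69.9) with a median of 10 narrower peaks between. The quartiles were 13.9 and 188 kb. The median was shortest on X (33.5 kb) and longest on 2L (98.9 kb), with 2R (49.8 kb), 3R (64.5 kb) and 3L (87.0 kb) between, the reverse of the order of domains per Mb. In 70 pairs (9.37%) no narrower peak lay between, and 51 of these 70 were within 1 kb of each other. X had 25 of the 70 pairs, 2R 17, 3R 16, 3L 7 and 2L 5.

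Some domains were separated by less than 100 bp. The shortest separation was 55 bp, between a domain of 15.1 kb and one of 16.1 kb at 3L, 17981450 to 17996593 and 17996649 to 18012704. The next was 56 bp at 3R, between 17423296 to 17428449 and 17428506 to 17434798, with scores of 74.6 and 213. It was followed by 65 bp at X, between 3566248 to 3583391 and 3583457 to 3592107. Separations of 69 bp were found at X, between 6432633 to 6440132 and 6440202 to 6446422, and between 7579767 to 7597156 and 7597226 to 7604955.

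Unbroken runs of domains, with no narrower peak between, were short. There were 62 runs of 2 domains and 4 runs of 3, and 616 domains had a narrower peak or the end of the arm on both sides. The run with most domain sequence was at 2R, 7478843 to 7536414, with 50.2 kb of domain in 57.6 kb. The other runs of 3 were at X, 9470093 to 9494855 (22.5 kb in 24.8 kb), at 3R, 20082784 to 20105204 (22.0 kb in 22.4 kb), and at 3R, 17423296 to 17444955 (19.1 kb in 21.7 kb). The longest run of 2, at 2R, 8884604 to 8930779, held 46.1 kb of domain in 46.2 kb, interrupted by 75 bp.

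Linked across gaps of 10 kb or less, whatever lay in them, the domains formed 122 groups of 2 or more with 277 domains, and 475 domains stayed alone. There were 98 groups of 2, 17 of 3, 5 of 4 and 2 of 5 domains. The median group was 20.8 kb long, and domains made up a median of 84.1% of its length. The share of domains in groups was 49.2% on X, 42.6% on 3R, 28.7% on 2R, 28% on 3L and 27.4% on 2L, so that 3R, with fewer domains per Mb than 2R, had more of them in groups. The largest group was at 2R, 8843496 to 8930779, 87.3 kb long with 5 domains and 6 narrower peaks, and 96.5% of it was under peaks. The other group of 5, at 3R, 17406096 to 17458742, was 52.6 kb long and 81.7% under peaks. The groups of 4 with most domain sequence were at 2R, 7478843 to 7556328, 3R, 12031230 to 12085457, and 3L, 609667 to 654038, with lengths of 77.5, 54.2 and 44.4 kb.

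The domains farthest from any other lay on 3L and 2L. The first, at 3L, 22828738 to 22834794 (6.06 kb, score 280), was 940 kb from the nearest domain, and the second, at 3L, 21878629 to 21888805 (10.2 kb, score 162), was 600 kb away. They were followed on 2L by 17445431 to 17452583, 4331981 to 4337767 and 10500352 to 10506595, at distances between 537 and 558 kb. Of these 5 domains 4 still had a narrower peak within 1 kb.

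Each arm, taken from its first to its last peak, had domains in all 10 equal segments counted from its centromere end. Over the 5 arms together domains were fewest in the segment at that end. Sequence beyond the outermost peak was not counted. The first segments of the 5 arms together held 31 domains (4.12%) and 7.38% of narrower peaks. The outermost segments held 116 domains (15.4%) and 11.1% of narrower peaks. In the 8 segments between, the share ran from 7.98% to 12.4%. Over the 5 arms domains made up 3.07% of peaks in the first segment and 7.33% in the last. The outermost segment was the richest of the arm on X (16.1 domains per Mb), 2L (10.9 per Mb) and 3L (9.15 per Mb), and not on 2R (7.57 per Mb) or 3R (6.45 per Mb). On 2R and X the first segment had the fewest domains of the arm, and on 3R it shared the lowest number, 12, with segment 9. On 2L and 3L, where it held 6 domains each, segments inside the arm held fewer. These were segments 4 and 5 of 2L, with 3 and 4 domains, and segments 5 and 8 of 3L, with 4 and 2.

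**Figure D5:**
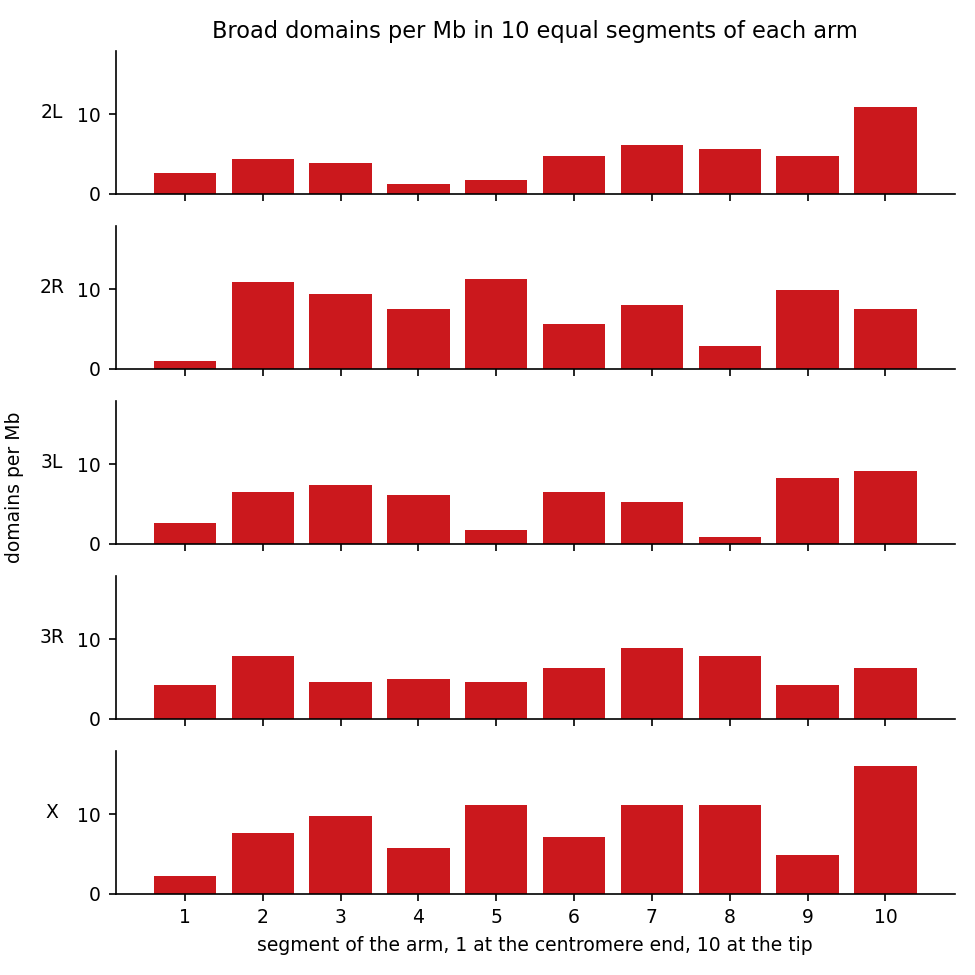
Broad domains per Mb in 10 equal segments of each of the 5 large arms, with segment 1 at the centromere end and segment 10 at the tip. The bar of segment 10 is the tallest of its arm on 2L, 3L and X, and the tallest bar of all is that of X, at 16.1 per Mb.

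A further window was the first megabase of each arm, counted from the outermost peak at its centromere end. On the 5 arms together it held 4 domains, 3 of them on 3R and 1 on 3L, among 309 peaks. That is 0.80 domains per Mb, against 6.66 per Mb elsewhere. Domains made up 1.29% of the peaks there and 5.46% elsewhere. Counted from the outermost peak, the first domain was at 0.111 Mb on 3L and 0.218 Mb on 3R. It was at 1.18 Mb on X, 1.71 Mb on 2L and just under 2 Mb on 2R. Distances to the end of the arm sequence and to the centromere were not measured. How reads with several matching places were handled is not given in the sources used here, so missing domains and sequence where reads could not be placed cannot be told apart.

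In 117 bins of 1 Mb the number of domains ran from 0 to 21, with a median of 6 and quartiles of 4 and 8. Domains varied more between bins than narrower peaks did, with a coefficient of variation of 62.4% against 32.0%; counts as small as those of the domains also vary more by counting alone. Across the bins domains and narrower peaks per Mb went together with a Spearman's rho of 0.47, a description over bins that share the same libraries. The 34 richest bins held at least 50% of the domains in bins. The bins with most domains were X, 1416041 to 2416040, with 21, X, 6416041 to 7416040, with 19, the tip of 2L (1 to 960330) with 16, and 2R, 5018953 to 6018952 and 3018953 to 4018952, with 15 each. The second of these had 108 narrower peaks, below the mean of 113 per bin, while the last had 196.

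There were 6 bins without any domain. On 2L, 2R and X these were the first bins from the centromere end, with 19, 11 and 42 narrower peaks. The other 3 lay inside the arms, at 2L, 13960331 to 14960330 and 14960331 to 15960330, and at 3L, 5942991 to 6942990, with 47, 54 and 72 narrower peaks. They fall within 2 of the 5 longest separations between consecutive domains. On 2L no domain occurred from 13841990 to 16250760, a stretch of 2409 kb that held 118 narrower peaks, the widest of 4074 bp, with 4.39% of its sequence under peaks. On 3L none occurred from 5348449 to 6951560 (1603 kb, 152 narrower peaks, 10.2% under peaks). On 2R none occurred from 15358559 to 16958064 (1600 kb, 118 narrower peaks), where the widest peak was 4982 bp and thus just under the limit. The next were 3L, 11291570 to 12397221 (1106 kb, 147 narrower peaks, 14.7% under peaks), whose widest peak was 4994 bp, and 2L, 11063423 to 12021308 (958 kb, 71 narrower peaks).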

How the data were processed

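The input was 1 deposited peak list for 2 ChIP and 2 input libraries. Per the file headers its source is MACS and its positions are FlyBase release 5. The submitters' processing notes name MACS2, BWA and CASAVA (1.7.0.2 and 1.7.0.3) and the build BDGP5. No label or header states the peak settings or how libraries were combined. The authors' score per peak is used as deposited, on an unstated scale. Since 2 peaks start at 0, starts were taken as 0-based; width is end minus start.

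Peaks on the 5 large arms were sorted, and gaps, neighbours and distances between edges were computed with pandas 2.3.3, numpy 2.4.6 and scipy 1.17.1. Arms run from first to last peak. Bins start at the centromere end, and a last bin under 50% of full size was dropped. The functions for widths, left gaps, the domain count, the nearest domain and joining were tested on simulated data with known answers. Those for segments, bins, runs, groups and flank coverage were not. Members, lists and comparisons were chosen with earlier results of these data known. Named domains follow a written rule on extremes of width, score, gap, distance, run, group and bin. No test was made, and depth and replicate spread are unknown. The alternatives were other width limits, score, joining, arms, distance limits and bin sizes. Per the labels, replicates are numbered, but the list gives no value per library.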

Additional observations from a re-analysis of the deposited data

How the results depend on the processing

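There were 67 alternative values, 2 of them added after seeing the data. Of these, 30 stayed within the interval of the reported value, or within 1.5 times for a count, and 37 did not. These counts do not measure how stable the results are, since some settings could not change a value and others redefined it. Whether a comparison changed direction was not assessed. No paired analysis was possible because the list gives no value per library; nor could any replicate be omitted. The number of domains is set by the width limit and by where the peak caller broke a region. It was 1130 at 4 kb, 160 at 10 kb, 1281 after joining across 500 bp and, added after seeing the data, 1592 after joining across 1 kb. At 4 kb, 13.3% of neighbours were domains, consecutive domains were 32.3 kb apart, 48.1% had another within 10 kb and 95.2% were in the upper 25% of scores. At 10 kb these values were 4.40%, 466 kb, 11.25% and 100%, and 63.5% of sides had a neighbour within 1 kb. Keeping the upper 50% of scores removed no domain, since none scored below the median of all peaks. The number of domains, their distances to each other and the ratio for X were thus fixed. This setting removes weak neighbours by construction. There 47.3% of sides had a neighbour within 1 kb, and median gaps were 1142 bp at domains and 1553 bp at narrower peaks. Neighbours were 2054 bp wide, 13.6% of them were domains, and 77.3% of domains were in the upper 25% of the remaining scores. Joining across 500 bp removes short gaps by construction. After it the same values were 37.2%, 1481 bp, 1980 bp, 1871 bp, 20.5% and 80.5%. Domains were then 28.2 kb apart, 49.1% had another within 10 kb, and X had 1.23 times as many per Mb. In both settings the upper 25% was set anew on the peaks or joined regions left, so its score limit was not kept. On the autosomal arms alone neighbours were 1147 bp wide and 32.5% of domains had another within 10 kb. Against peaks of 2 to 5 kb the comparison gap was 604 bp. Sides with a neighbour were 46.4% at a limit of 500 bp and 78.9% at 2 kb. Domains with another nearby were 26.5% at 5 kb and 70.9% at 50 kb. Bins without a domain were 12.3% at 500 kb and 0% at 2 Mb. The cause was not tested beyond what each construction shows. With depth unknown, its limits cannot be given.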

Other observations

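Away from the 5 large arms only chromosome 4 had peaks of 5 kb or more. It held 2 of them among 145 peaks, at 77007 to 82647 (5.64 kb, score 99.1) and at 522431 to 529597 (7.17 kb, score 270). The widest of the 146 peaks on the unplaced scaffold Uextra was 4684 bp, and the widest on U and XHet were 1755 and 1908 bp.

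Regions as long as a domain also arose from narrower peaks that lay close together. Joined across gaps of 500 bp or less, the arms held 1281 regions of 5 kb or more. Of these 698 contained a domain and 583 were built from narrower peaks alone, with a median length of 6.49 kb and a maximum of 20.8 kb. With gaps of 200 bp or less there were 183 such regions, and with gaps of 1 kb or less there were 940. Joining across wider gaps can only lengthen regions, so a rise in this number with the limit was nearly fixed in advance. No label or header states the settings by which the caller placed the gaps.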
